A study of Mus musculus with 12 samples.

Results

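Described here are 10 genes of leukocyte recruitment in C2C12 myotubes: the chemokines Ccl2, Ccl7, Cxcl1, Cxcl5, Cxcl10, Cxcl12 and Cxcl14, the chemokine-scavenging receptor Ackr3, and the adhesion molecules Vcam1 and Icam1. They were chosen by gene symbol, through the Ensembl identifiers of the GENCODE annotation of GRCm38, and all 10 were among the 55487 genes listed in the count table. Of those listed, 29620 had a count in any library and 14175 passed the filter on low counts. C2C12 is a mouse myoblast line that forms multinucleated myotubes by fusion once serum is reduced. Differentiation took 5 days in 2% horse serum in both groups, and was followed by 24 h with 4% horse serum in the control group or with 4% STEM in the other. STEM is a cell-free mixture of factors secreted by human embryonic stem cells that have been partly differentiated. It took the place of horse serum, so adding STEM and taking horse serum away cannot be told apart. There were 6 libraries per group, numbered 1 to 6 with horse serum and 7 to 12 with STEM, and the labels do not say whether each came from a culture of its own. The p-values below therefore measure the spread between libraries, which may be technical.

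Chemokines are small secreted proteins that direct leukocytes along a concentration gradient through receptors coupled to G proteins. Ccl2 and Ccl7 draw monocytes through Ccr2, Cxcl1 and Cxcl5 draw neutrophils through Cxcr2, and Cxcl10 draws activated T cells through Cxcr3. Cxcl12 signals through Cxcr4 and is taken up and degraded through Ackr3, which does not couple to G proteins in the usual way. Vcam1 and Icam1 are cell surface proteins that leukocyte integrins hold on to, and Vcam1 is also found on myogenic cells, where it has been tied to fusion. Inflamed muscle makes many of these genes in response to NF-kB and interferon signals.

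Depth was between 13285472 and 18254882 counts with horse serum and between 14909485 and 24536264 with STEM. Levels are given as CPM, counts scaled to a common library size after TMM normalization. Horse serum library 6 stood apart from the other 5: the summed CPM of 8 myotube markers was 11720 there, against 17570 to 19790 in the other horse serum libraries and 15930 to 21310 with STEM. The summed CPM of 5 markers of dividing cells was 958 in library 6, 571 to 871 in the other horse serum libraries and 429 to 524 with STEM, and 4 of these 5 markers were lower with STEM by the test used below. Of the 8 myotube markers 1 was higher and 1 lower with STEM, in a fit that called 36.4% of all tested genes. Without library 6 the numbers were 1 and 4, in a fit that called 50.8%. Of 4 markers of myoblasts and reserve cells 2 were lower. The 10 genes are therefore compared with and without library 6. Defining leukocyte markers were at or near 0: Adgre1, Fcgr1 and Cd3e had no count in any library and Ptprc, the pan-leukocyte marker, had at most 1. The 10 leukocyte markers summed to between 3.13 and 5.55 CPM with horse serum and between 4.71 and 6.13 with STEM. Cd68, the only 1 of them to pass the filter, was not called by edgeR (adjusted p = 0.610). Without library 6 Csf1r, the receptor of macrophage colony-stimulating factor, also passed the filter, through STEM libraries alone, so its call as higher there follows in part from that selection. Csf1r was at 0.288 ± 0.198 CPM with horse serum and 0.917 ± 0.314 with STEM (SD, n = 6 each), and its part in the results below was not tested. The endothelial markers Kdr, Emcn and Tie1 were also at 0, and the 6 endothelial markers summed to at most 1.001 CPM in any library. In bulk RNA, fewer cells that express a gene and less RNA per cell cannot be told apart.

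The sequences before the transcription starts are shown for the 4 genes in which letters of common control motifs were found. The RefSeq promoter table for GRCm38.p6 held 6 of the 10 genes (Cxcl1, Cxcl10, Cxcl12, Cxcl14, Ackr3 and Icam1), and Ccl2, Ccl7, Cxcl5 and Vcam1 were not matched. Each window holds the 250 bases before the RefSeq start, read 5′ to 3′ on the gene's strand, with motif letters in capitals. A search on both strands covered 4 motifs: the TATA box TATAAA, the AP-1 site TGANTCA, the core of the interferon-stimulated response element (GAAA, any 2 bases, GAAA) and the kappa B consensus bound by NF-kB. For that consensus a match was GGG, a purine, any 2 bases, 2 pyrimidines and CC.
Cxcl1: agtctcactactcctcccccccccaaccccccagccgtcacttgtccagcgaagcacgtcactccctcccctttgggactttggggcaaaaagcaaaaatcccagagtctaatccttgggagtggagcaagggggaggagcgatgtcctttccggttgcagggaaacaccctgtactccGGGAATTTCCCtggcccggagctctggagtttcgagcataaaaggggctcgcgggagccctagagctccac
Cxcl10: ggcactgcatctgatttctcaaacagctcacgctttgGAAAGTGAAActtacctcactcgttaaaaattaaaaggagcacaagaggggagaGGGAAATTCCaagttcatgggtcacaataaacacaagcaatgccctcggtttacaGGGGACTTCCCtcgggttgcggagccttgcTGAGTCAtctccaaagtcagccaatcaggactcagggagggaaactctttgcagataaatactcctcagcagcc
Cxcl14: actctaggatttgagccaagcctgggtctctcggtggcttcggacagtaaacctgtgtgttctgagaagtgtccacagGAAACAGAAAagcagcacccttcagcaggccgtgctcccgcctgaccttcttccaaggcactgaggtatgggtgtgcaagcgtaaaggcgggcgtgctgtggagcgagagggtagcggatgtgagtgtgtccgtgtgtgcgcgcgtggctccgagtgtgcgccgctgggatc
Ackr3: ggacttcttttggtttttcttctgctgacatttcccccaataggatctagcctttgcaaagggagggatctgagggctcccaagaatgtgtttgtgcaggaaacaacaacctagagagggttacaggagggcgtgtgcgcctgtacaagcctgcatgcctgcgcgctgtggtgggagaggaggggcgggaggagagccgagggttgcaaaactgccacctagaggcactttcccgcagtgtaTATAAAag

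The Cxcl1 window (chr5:90890995-90891244, plus strand) held a pair of overlapping kappa B matches, one on each strand, which together spanned the bases from 71 to 61 before the start. In the Cxcl10 window (chr5:92348890-92349139, minus strand) there were 3 kappa B matches, at 159 to 150, 104 to 95 and 103 to 94 bases before the start, the last 2 of them overlapping. It also held an AP-1 match at 74 to 68 and a response element match at 213 to 204 bases before the start. The Cxcl14 window (chr13:56296552-56296801, minus strand) held 1 response element match at 172 to 163, and the Ackr3 window (chr1:90203730-90203979, plus strand) held a TATA box match at 8 to 3. The windows of Cxcl12 and Icam1 held no exact match to these motifs. Sequences that differ from a motif by 1 base were not searched for, so no window is shown to lack such a site. Among 32851 promoter windows of the same length, 7.25% held the kappa B consensus, 12.4% the TATA box, 6.75% the AP-1 site and 2.98% the response element core. A match describes letters only and is not a bound site.

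The question was whether myotubes kept with STEM carried more or less of these transcripts than myotubes kept with horse serum. Cxcl12, Cxcl5, Ackr3 and Vcam1 were lower with STEM and Cxcl14 was higher, by edgeR's quasi-likelihood test over all genes at an adjusted p of 0.05 or less. These were the 5 genes of the 10 that passed the filter on low counts. Ccl2, Ccl7, Cxcl1, Cxcl10 and Icam1 did not pass it, and their means were compared by a two-sided exact permutation test of CPM, without adjustment. Among all tested genes 36.4% were called, 17.4% lower and 18.9% higher with STEM, and the median log2 fold change was 0.012. Without library 6 the same 5 genes were called in the same directions, while 50.8% of all tested genes were called, 24.5% lower and 26.3% higher. The libraries of the groups did not overlap for Cxcl12, Cxcl14, Ackr3, Vcam1 and Cxcl1, with or without library 6. Among all tested genes the groups did not overlap for 17.2%, and for 33.3% without library 6. Cxcl1 did not pass the filter and so is outside those shares.

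**Figure D1:**
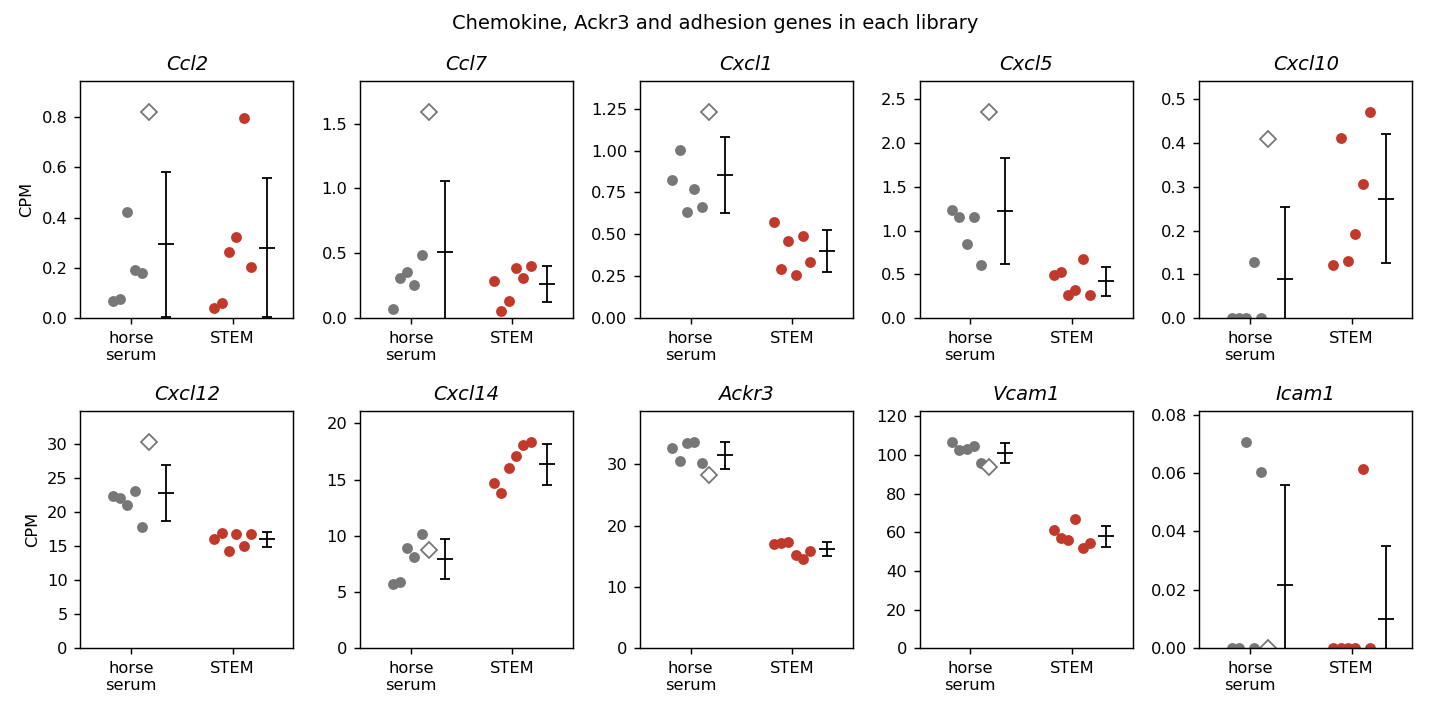
CPM of the 10 genes in each library (linear axes from 0), with horse serum in grey, library 6 as an open diamond and STEM in red. Bars are the mean and SD of 6 libraries, cut off at 0 where they would run below it. Vcam1 fell from 101 to 57.9 CPM and Ackr3 from 31.4 to 16.2 with no shared range, and Cxcl14 went from 7.94 to 16.3. The diamond is the highest horse serum point for 6 of the 7 chemokines, and library 6 was the highest for 35.8% of all tested genes.

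Of the chemokines, Cxcl12 had the highest CPM with horse serum. The gene (ENSMUSG00000061353) lies at chr6:117168535-117181367 on the plus strand. With horse serum its level was 17.8 CPM in the lowest library, 22.2 at the median and 30.2 in the highest, and with STEM 14.3, 16.4 and 16.9. Every STEM library was below every horse serum library, and the highest horse serum value was library 6. The means were 22.7 ± 4.12 and 16.0 ± 1.10 CPM (SD, n = 6 each). The log2 fold change was −0.51 (SE 0.103, edgeR adjusted p = 0.00131), a level 1.43-fold lower with STEM. Without library 6 it was −0.41 (SE 0.0740, edgeR adjusted p = 0.000131).

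Cxcl14, an evolutionarily conserved chemokine made by many epithelia and by muscle, moved the other way. The gene (ENSMUSG00000021508) lies at chr13:56288643-56296551 on the minus strand. Its level with horse serum ran from 5.76 through a median of 8.41 to 10.2 CPM, and with STEM from 13.8 through 16.6 to 18.3. The lowest STEM library was thus above the highest horse serum library, and library 6 lay within its group. Mean CPM was 7.94 ± 1.75 with horse serum and 16.3 ± 1.83 with STEM (SD, n = 6 each). The log2 fold change was 1.03 (SE 0.130, edgeR adjusted p = 3.07e-05), a 2.04-fold higher level, and 1.06 (SE 0.132, edgeR adjusted p = 6.32e-06) without library 6. Of the 3 chemokines that passed the filter, it was the only one that rose.

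Cxcl5 and Cxcl1 are neutrophil chemokines whose genes lie 129616 bases apart on chromosome 5. Cxcl5 (ENSMUSG00000029371, chr5:90759360-90761624, plus strand) had 10 to 46 counts per horse serum library and 4 to 12 per STEM library. In CPM its lowest, median and highest libraries were 0.604, 1.16 and 2.36 with horse serum, and 0.263, 0.406 and 0.673 with STEM. The groups overlapped, since the lowest horse serum library was below the highest STEM library, and library 6 was the highest of all. Mean CPM was 1.23 ± 0.603 with horse serum and 0.425 ± 0.166 with STEM (SD, n = 6 each). The log2 fold change was −1.52 (SE 0.343, edgeR adjusted p = 0.00305), and −1.18 (SE 0.294, edgeR adjusted p = 0.00247) without library 6. Cxcl5 passed the filter through 5 horse serum libraries and 1 STEM library, so mainly through the group in which it was higher. With at least 10 counts required in every library, or with every library thinned to the lowest total, it was not tested.

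Cxcl1 (ENSMUSG00000029380, chr5:90891241-90893115, plus strand) was just below the filter, which 5 of the 6 libraries it required had reached. It had 9 to 24 counts per horse serum library and 4 to 14 per STEM library. The lowest, median and highest levels were 0.635, 0.797 and 1.23 CPM with horse serum and 0.258, 0.399 and 0.571 CPM with STEM. No library of one group reached into the range of the other. Mean CPM was 0.854 ± 0.226 against 0.402 ± 0.123 (SD, n = 6 each), and the exact permutation test gave p = 0.00216, the smallest that 6 against 6 libraries allow. Without library 6 the exact permutation p was 0.00433, again the smallest possible. With no filter, Cxcl1 had a log2 fold change of −1.06 (SE 0.313, edgeR adjusted p = 0.0132), in a fit that called 15.7% of 29620 genes. Leaving out horse serum library 3 or any single STEM library let Cxcl1 pass the filter, and it was then called as lower. In those fits it passed through horse serum libraries alone, the group in which it was higher, so these calls add no independent support.

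The monocyte chemokines Ccl2 and Ccl7 are neighbours on chromosome 11, with 8258 bases between them, and neither differed between the groups by the test used. Ccl2 (ENSMUSG00000035385, chr11:82035571-82037453, plus strand) had 1, 3 and 16 counts in the lowest, median and highest horse serum libraries. With STEM these counts were 1, 3.5 and 13. The high counts came from 1 library on each side, library 6 with horse serum and library 11 with STEM. Mean CPM was 0.294 ± 0.288 and 0.281 ± 0.276 (SD, n = 6 each, exact permutation p = 0.907, and 0.623 without library 6). The SD was about as large as the mean in both groups, and the direction of the difference turned with single libraries left out, and no difference was detectable at this depth.

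Ccl7 (ENSMUSG00000035373, chr11:82045712-82047525, plus strand) had 1, 4.5 and 31 counts in the lowest, median and highest horse serum libraries, and 1, 5.5 and 7 with STEM. The highest count was that of library 6, whose level was 5.40 times the mean level of the other 5. Mean CPM was 0.510 ± 0.546 and 0.262 ± 0.139 (SD, n = 6 each, exact permutation p = 0.362). Without library 6 the horse serum mean was 0.294 CPM, and the exact permutation p was 0.723.

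Cxcl10, the interferon-inducible T cell chemokine (ENSMUSG00000034855, chr5:92346638-92348889, minus strand), was near the limit of detection. Its counts were 0, 0, 0, 2, 0 and 8 in horse serum libraries 1 to 6 and 3, 7, 2, 3, 5 and 7 in STEM libraries 7 to 12. Every STEM library thus had at least 2 counts, while 4 of 6 horse serum libraries had none and library 6 had about as many as the highest STEM libraries. Mean CPM was 0.0898 ± 0.165 with horse serum and 0.273 ± 0.148 with STEM (SD, n = 6 each, exact permutation p = 0.0628). Without library 6 the exact permutation p was 0.00866. The other 5 horse serum libraries were then all below a floor of 3 counts, but 3 of the 6 STEM libraries were also at or below it. The STEM mean was 1.33 times that floor, which is not a lower bound on the difference between the groups. With no filter and all 12 libraries, Cxcl10 was not called (edgeR adjusted p = 0.240). Cxcl10 shares 133 exon bases with Art3 on the opposite strand, which went from 5.15 to 2.99 CPM (log2 fold change −0.75, edgeR adjusted p = 0.0321). The libraries kept strand, but the sources used here do not give the strand setting of the counting, so reads of this overlap cannot be assigned with certainty.

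Ackr3, the scavenging receptor of Cxcl12, was lower with STEM. The gene (ENSMUSG00000044337) lies at chr1:90203980-90216751 on the plus strand. The lowest, median and highest libraries were 28.1, 31.6 and 33.6 CPM with horse serum and 14.5, 16.4 and 17.4 CPM with STEM. The ranges were far apart, and library 6 was the horse serum library nearest to STEM. Mean CPM was 31.4 ± 2.14 and 16.2 ± 1.17 (SD, n = 6 each). The log2 fold change was −0.96 (SE 0.0653, edgeR adjusted p = 1.45e-07), which is 1.94-fold lower, and −0.99 (SE 0.0611, edgeR adjusted p = 3.39e-10) without library 6.

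Cxcr4, the signalling receptor of Cxcl12 and the chemokine receptor with the highest CPM in these cells, showed no detectable difference. It was at 44.0 ± 4.92 CPM with horse serum and 44.3 ± 1.84 with STEM (SD, n = 6 each, log2 fold change 0.01, SE 0.0692, edgeR adjusted p = 0.925). Per length of exon (RPKM, which is CPM per kilobase of exon), the ratio of Cxcl12 to Ackr3 was 0.241 to 0.296 in horse serum libraries 1 to 5, 0.440 in library 6 and 0.337 to 0.453 with STEM. The ratio in library 6 thus lay in the STEM range. It is a description over libraries, with no test. Ccr2, the receptor of Ccl2 and Ccl7, had at most 2 counts in any library, and Cxcr2 and Cxcr3 had none.

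**Figure D2:**
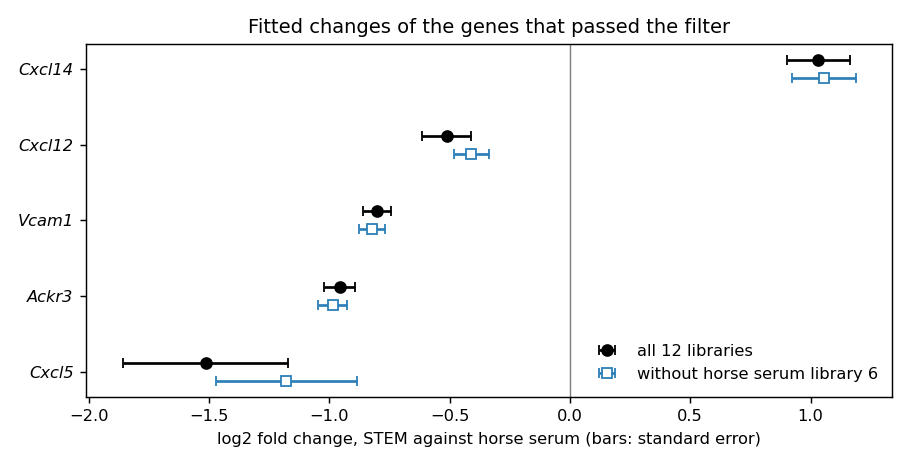
Log2 fold change of STEM against horse serum with its standard error (bars) for the 5 genes that passed the filter, with all 12 libraries (filled) and without horse serum library 6 (open). Ackr3 went from −0.96 to −0.99 and Vcam1 from −0.80 to −0.82 when library 6 was left out, while Cxcl12 went from −0.51 to −0.41 and Cxcl5 from −1.52 to −1.18.

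Vcam1, the ligand of the integrin made of Itga4 and Itgb1, had the highest CPM of the 10 genes in both groups. The gene (ENSMUSG00000027962) lies at chr3:116109949-116129688 on the minus strand. With horse serum its lowest, median and highest libraries were 93.8, 103 and 107 CPM, and with STEM 51.8, 56.7 and 67.0 CPM. Every STEM library was below every horse serum library, and the lowest horse serum library was again library 6. Means were 101 ± 5.04 and 57.9 ± 5.39 CPM (SD, n = 6 each). The log2 fold change was −0.80 (SE 0.0596, edgeR adjusted p = 2.33e-07), a 1.74-fold lower level, and −0.82 (SE 0.0546, edgeR adjusted p = 7.57e-10) without library 6. An antisense gene that shares 61 exon bases with it had at most 2 counts in a library.

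Icam1 (ENSMUSG00000037405, chr9:21015985-21028817, plus strand), the ligand of the leukocyte integrins that contain Itgb2, was not measurable. It had 1 count in each of 2 horse serum libraries and in 1 STEM library, and 0 in all others. Both groups were below the floor of 3 counts, so no fold change is given (exact permutation p = 0.727). The adhesion molecules were thus at opposite ends of the detected range, with 9388 Vcam1 counts and 2 Icam1 counts over the horse serum libraries.

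Levels can be set side by side between genes per length of exon. With horse serum Vcam1 was at 11.4 RPKM, Ackr3 at 9.38, Cxcl14 at 4.34 and Cxcl12 at 2.78, and the other genes were at 0.658 RPKM or less. Neighbours in this order did not overlap between libraries for Vcam1 and Ackr3, Ackr3 and Cxcl14, or Cxcl12 and Cxcl5, whereas Cxcl14 and Cxcl12 overlapped although Cxcl14 was higher in each of the 6 libraries. With STEM the order changed at the top. Cxcl14 came first at 8.94 RPKM, followed by Vcam1 at 6.53, Ackr3 at 4.83 and Cxcl12 at 1.95. Cxcl14 exceeded Vcam1 in 6 of 6 STEM libraries, with ranges that touched, whereas in horse serum its level was below that of both Vcam1 and Ackr3. Among Ccl7, Ccl2, Cxcl5 and Cxcl1 the libraries of neighbouring genes overlapped in both groups, so their order is not resolved.

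**Figure D3:**
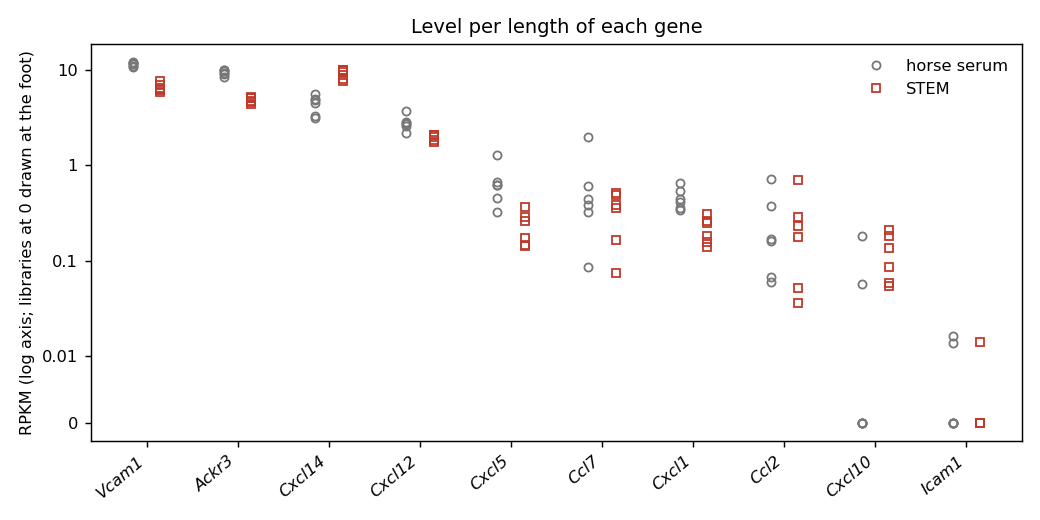
RPKM of each gene in each library (log axis, libraries at 0 drawn at the foot), horse serum as circles and STEM as squares, ordered by the horse serum mean. Cxcl14 passes from the third place at 4.34 RPKM to the first at 8.94, and the 6 genes to the right of Cxcl12 have means of 0.658 RPKM or less.

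Spread between libraries differed widely among these genes, and so did their counts. The median count with horse serum was 1573 for Vcam1, 488 for Ackr3, 312 for Cxcl12, 126.5 for Cxcl14, 16.5 for Cxcl5 and 4.5 for Ccl7. Counting noise is larger at low counts, and its part in the SDs was not tested. Ccl7 did not pass the filter, so it is not among the genes behind the medians of all tested genes. The SD of log2 CPM over the 6 horse serum libraries was 0.0727 for Vcam1 and 0.0993 for Ackr3, both below the median of 0.172 over all tested genes. It was 0.248 for Cxcl12, 0.329 for Cxcl14, 0.590 for Cxcl5 and 1.04 for Ccl7. Without library 6 the SD of Cxcl12 was 0.149 and that of Ccl7 was 0.627, beside a median of 0.111 over all tested genes. With STEM the SDs were 0.1003 for Cxcl12, 0.163 for Cxcl14, 0.105 for Ackr3 and 0.131 for Vcam1, against a median of 0.125.

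Library 6 was the highest of the horse serum group for 35.8% of all tested genes and the lowest for 33.1%. An extreme place in its group was thus not particular to the genes described here. Ccl2, Ccl7, Cxcl1, Cxcl5, Cxcl10 and Cxcl12 had their highest horse serum level in library 6, and Ackr3 and Vcam1 their lowest. Of these, Ccl2, Ccl7, Cxcl1 and Cxcl10 did not pass the filter and so are outside those shares. Relative to the mean of the other 5 libraries, library 6 had 5.40 times the level of Ccl7, 4.35 times that of Ccl2, 2.36 times that of Cxcl5, 1.58 times that of Cxcl1 and 1.42 times that of Cxcl12. For Ackr3 and Vcam1 the same ratio was 0.878 and 0.915. The other 5 libraries held only 1 to 6 counts of Ccl2 and 1 to 8 counts of Ccl7 each. Counts of Ccl2, Ccl7, Cxcl1, Cxcl5 and Cxcl10 together came to 125 in library 6, to 32 to 39 in the other horse serum libraries and to 19 to 42 with STEM. The low myotube marker sum of library 6 moved with these values, and its part in them was not tested.

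**Figure D4:**
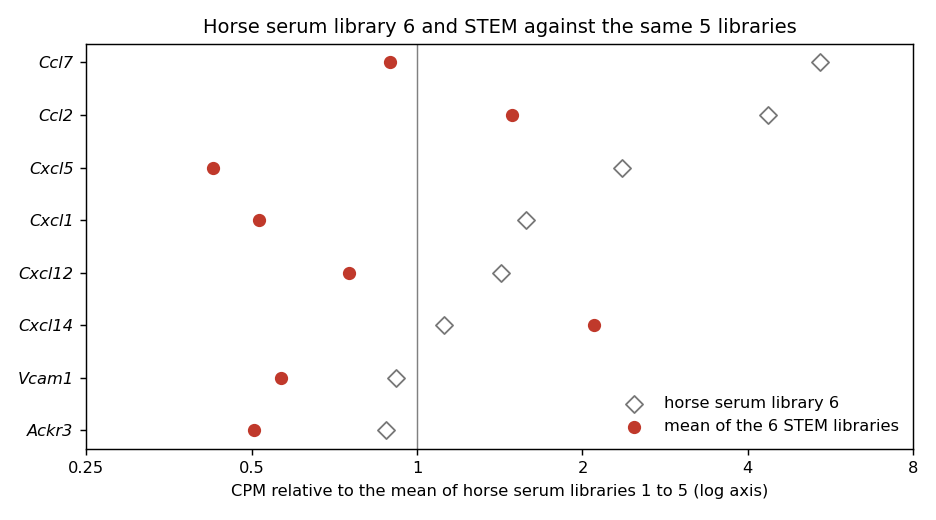
CPM of horse serum library 6 (diamonds) and the mean of the 6 STEM libraries (circles). Each is divided by the mean of horse serum libraries 1 to 5 (log axis, line at 1). Shown are the 8 genes with more than 3 counts in at least 1 of libraries 1 to 5. For Ccl2, 4 of those 5 libraries had 3 counts or fewer. Library 6 is at 5.40 for Ccl7 and 4.35 for Ccl2, far above the STEM means, whereas for Vcam1 and Ackr3 it is at 0.915 and 0.878.

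Genes next to these chemokines in their clusters were mostly silent. Ccl1 and Ccl12 on chromosome 11 and Cxcl3, Cxcl15 and Pf4 on chromosome 5 had no count, Cxcl2 had 1 in all and Ppbp at most 3 in a library. Ccl8 had 50 counts over the horse serum libraries, 26 of them in library 6, and 34 over the STEM libraries (exact permutation p = 0.606). Ccl11, an eosinophil chemokine, had 23 counts over the horse serum libraries and 6 over the STEM libraries (exact permutation p = 0.0736). Cxcl9, another ligand of Cxcr3 beside Cxcl10, had 0 to 2 counts per horse serum library and 5 to 11 per STEM library. The groups did not overlap, library 6 included, and the exact permutation test gave its smallest p, 0.00216. Cxcl9 was at least 2.27-fold higher with STEM against the floor of 3 counts, and was called in the fit with no filter (edgeR adjusted p = 0.000714). Cxcl11, the remaining ligand of Cxcr3, had 3 counts with STEM and none with horse serum.

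With these neighbours included, 33 other chemokine ligands were in the table, of which 16 had no count in any library and 23 were at 3 counts or less throughout. The 4 that were tested (Ccl9, Ccl25, Cxcl16 and Cx3cl1) were not called by edgeR with all libraries, and their median log2 fold change was −0.02. By an unadjusted p under 0.05 there was 1, Cx3cl1, which DESeq2 called as lower. Without library 6, Cxcl16 was called as higher (log2 fold change 0.63, edgeR adjusted p = 0.00744), in a fit that called 50.8% of all tested genes. Of 23 other chemokine receptors 3 were tested, Cxcr4, Cxcr6 and Cx3cr1, and none was called with all libraries by edgeR, DESeq2 or limma-voom, or had an unadjusted edgeR p under 0.05. Without library 6, Cxcr6, the receptor of Cxcl16, was called as higher (log2 fold change 0.92, edgeR adjusted p = 0.0306).

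Among 20 other leukocyte adhesion molecules, 8 were tested and 5 of them were called, in a fit that called 36.4% of all tested genes. Mcam rose (log2 fold change 1.22, edgeR adjusted p = 5.47e-07), as did Jam2 (0.42, adjusted p = 2.91e-05) and Jam3 (0.46, adjusted p = 9.19e-05). Alcam went from 43.9 ± 4.86 to 20.5 ± 1.88 CPM (SD, n = 6 each, log2 fold change −1.10, edgeR adjusted p = 2.55e-07). Cd34, found on quiescent satellite cells as well as on blood and endothelial progenitors, fell too (log2 fold change −0.75, edgeR adjusted p = 1.17e-05). The median over the 8 was 0.10. Of the integrin chains that bind Vcam1 and Icam1, Itgb1 was slightly lower (1271 to 1127 CPM, log2 fold change −0.17, edgeR adjusted p = 0.0247), and Itgb2 was at 0.68 (edgeR adjusted p = 0.0766). Without library 6, Itgb2 was called as higher (log2 fold change 0.80, edgeR adjusted p = 0.0407), as was the adhesion molecule Cd44 (0.25, adjusted p = 0.00137). That fit called 50.8% of all tested genes. Itga4, Itgal and Itgam had at most 15, 11 and 9 counts in a library.

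Genes of the pathways known to induce chemokines moved in both directions, in a fit that called 36.4% of all tested genes. Of 16 tested NF-kB factors and feedback genes 2 were higher and 5 lower, with a median log2 fold change of −0.02. Cyld, a deubiquitinase that restrains NF-kB, was at −0.64 (edgeR adjusted p = 7.75e-07), Nfkbiz at −0.42 (adjusted p = 0.000700), Nfkbib at 0.50 (adjusted p = 0.000632) and Nfkbia, the inhibitor that NF-kB itself induces, at −0.22 (adjusted p = 0.0131). Of 15 tested interferon response genes 1 was higher and 5 were lower, with a median of −0.05. Ifit2 (−0.66, edgeR adjusted p = 2.06e-05), Stat2 (−0.48, adjusted p = 3.54e-05) and Tap1 (−0.75, adjusted p = 0.00213) fell, while Irf1 (−0.05, adjusted p = 0.537) was not called. Cxcl9 and Cxcl10, both interferon-inducible, had 45 and 27 counts over the STEM libraries and 7 and 10 over the horse serum libraries.

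Of 13 tested inducing cytokines and their receptors 3 were higher and 4 lower, and their median log2 fold change was −0.09. Without library 6 these numbers were 5 and 6, in a fit that called 50.8% of all tested genes. Il6 rose (log2 fold change 1.30, edgeR adjusted p = 0.000147), and its receptor chain Il6ra fell (−0.77, adjusted p = 0.000156). Il1r1, the signalling receptor of interleukin-1, fell from 40.6 ± 2.42 to 23.4 ± 1.85 CPM (SD, n = 6 each, log2 fold change −0.79, edgeR adjusted p = 4.20e-07). Il1b (0.976 to 1.63 CPM, log2 fold change 0.69, edgeR adjusted p = 0.0315) and Tnfrsf1a (0.45, adjusted p = 0.000628) were also called as higher. Tnfrsf1b (−0.36) and Il1rap (−0.57) were also called as lower. Tnf had at most 2 counts in a library, and Ifnb1 and Il17a had none. Over all 14175 tested genes the share called was the 36.4% given above, and the shares in these lists ran from 0% of the other ligands to 62.5% of the adhesion molecules.

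**Figure D5:**
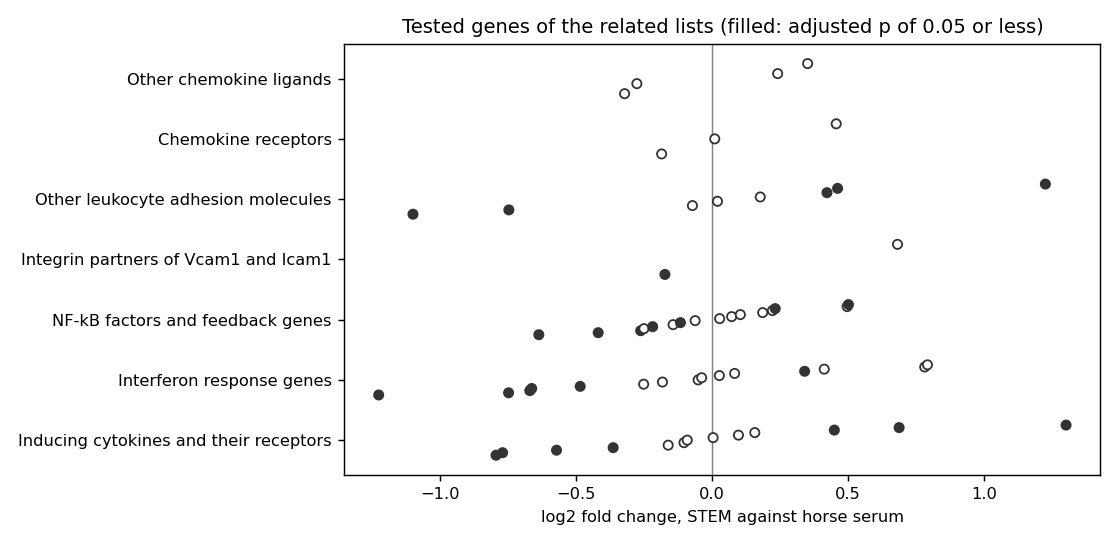
Log2 fold change of STEM against horse serum for the tested genes of the 7 related lists, filled where the edgeR adjusted p was 0.05 or less, spread vertically for legibility. The adhesion molecules run from −1.10 for Alcam to 1.22 for Mcam, and none of the 4 other ligands or 3 other receptors is filled.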

How the data were processed

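Stranded total RNA depleted of ribosomal RNA was sequenced from C2C12 myotubes, 6 libraries per group. The authors deposited raw read counts per gene on GRCm38. The submitters' processing notes name STAR 2.7.3a, featureCounts 1.6.3 and DESeq2 1.26.0, and the annotation release and strand setting are not given in the sources used here. Groups came from the sample titles. Symbols, positions and exon lengths came from GENCODE, promoters from RefSeq.

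Counts were tested with edgeR 4.0.16 (TMM, filterByExpr, robust glmQLFit, glmQLFTest) in R 4.3.3, with Benjamini-Hochberg adjustment over all tested genes. The test was checked on simulated counts. Genes below the filter were compared by two-sided exact permutation tests, unadjusted. Libraries of a group differed beyond sampling noise (chi-square per degree of freedom 3.29 to 68.5 over 30 pairs). Log2 CPM used a prior count of 2. DESeq2 1.42.0, limma-voom (limma 3.58.1), other scalings, filters and thresholds, thinning and leaving out each library were tried. The 10 genes and the lists were chosen with earlier results of these data known. The named genes are the 10, at most 3 called genes of lowest p per list, the receptors Ccr2, Cxcr2, Cxcr3 and Cxcr4, the integrin chains Itga4, Itgb1, Itgal, Itgam and Itgb2, the cluster neighbours, Nfkbia and Irf1. Beside these, 1 gene that the rule names is not reported here. Other genes named were chosen after their values were seen. Floors cover counting error only.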

Additional observations from a re-analysis of the deposited data

Results flagged for a closer look

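In 5 of the 20 groups of 6 values (10 genes in each condition) 1 library lay far from the other 5 by Dixon's criterion. For independent groups of normally distributed values, chance alone gives about 1 such group in 20. These groups share the same libraries and several hold few counts, so the 5 cannot be compared with that share. With horse serum, library 6 was the distant one each time, at 1.59 CPM for Ccl7, 2.36 CPM for Cxcl5 and 0.410 CPM for Cxcl10. With STEM it was library 11, at 0.796 CPM for Ccl2 and 0.0612 CPM for Icam1. The Icam1 value is 1 count beside 5 libraries at 0, and the Ccl2 value is 13 counts.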

How the results depend on the processing

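Cxcl5, Cxcl12, Cxcl14, Ackr3 and Vcam1 kept their direction and their call under every alternative in which they were tested. For Cxcl5 several of these calls add no independent support, as set out below. At an adjusted p of 0.01, 3266 genes were called in place of 5155, and the same count of 5 of the 10 genes. Leaving out each library in turn gave 4459 to 7245 called genes, the most without horse serum library 6. With no filter 6 of the 10 genes were called, Cxcl1 being the addition, in a fit that called 15.7% of 29620 genes. With at least 10 counts in every library or after thinning, 4 were called and Cxcl5 was not tested. Those fits called 4940 and 4973 genes, and the shares of their tested genes are not given here.

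The Ccl2 difference (STEM minus horse serum, mean CPM) ran from −0.116 to 0.0919 with single libraries left out, against −0.0133 with all, and changed sign in 5 of 12 cases (without horse serum library 3 or 6, or STEM library 7, 8 or 12). That of Cxcl10 ran from 0.143 to 0.247, with an exact permutation p of 0.00866 without horse serum library 6 and 0.0476 without STEM library 7. Cxcl5 ran from −1.67 to −1.18 in log2 fold change, and without horse serum library 5 or STEM library 11 its groups no longer overlapped. In the fit without horse serum library 5, and in each fit without 1 STEM library, 5 horse serum libraries were enough for Cxcl5 to pass the filter. The fit without STEM library 11 gave the −1.67, and there Cxcl5 passed through horse serum libraries alone. Horse serum is the group in which Cxcl5 was higher, so the calls in these fits add no independent support. No paired analysis was possible because the groups share no replicate numbers. Depth limits Ccl2, Ccl7, Cxcl10 and Icam1 most, which had few counts per library.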
